A study of Mus musculus with 12 samples.

Results

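The genes described here control the release of paused RNA polymerase II, and their transcripts were counted in macrophages cultured from mouse bone marrow. They are 9 genes chosen by symbol from the 50559 of the count table: Cdk9, Ccnt1, Ccnt2, Hexim1, Larp7, Mepce, Brd2, Brd3 and Ell2. All 9 were found and all 9 passed the filter on low counts, which left 13530 genes to test. The mice were C57BL/6, and no mutation or transgene is named for either group. In 6 libraries the cells had received allergen of the house dust mite (HDM), a common trigger of asthma, for 1 h, and in the other 6 only its vehicle. The series was made for a study of AKAP79/150, a protein that anchors protein kinase A and calcineurin near their substrates, and the comparison asks which transcripts the allergen changes. Nothing in the labels ties a library to an animal or a culture, and p-values therefore cover the spread among these libraries, which may be technical.

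Early response genes often carry a polymerase that has started transcription and then halted just downstream of the start site. The kinase P-TEFb, made of CDK9 and a T-type cyclin, phosphorylates the polymerase and the pausing factors and so lets it elongate. Much of the P-TEFb in a cell is held inactive by HEXIM1 on the 7SK RNA, which MEPCE caps and LARP7 stabilises. BET proteins read acetylated histones and help to bring P-TEFb to genes, and ELL2 is a subunit of the super elongation complex, in which P-TEFb also works. In macrophages this release step is known for its part in the induction of inflammatory genes.

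Sequence upstream of the start was examined because the study concerns a scaffold of protein kinase A, whose classic nuclear target CREB binds the cAMP response element, TGACGTCA. RefSeq windows (GRCm38.p6) were found for 8 of the 9 genes, and the 250 bases before each start were searched on both strands. The 4 windows shown are those of Ell2 and Larp7, which hold the full element, of Ccnt1, which holds only TGACG, the first 5 bases of it, and of Cdk9, which holds neither. Capitals mark TGACG on either strand (CGTCA where it is read on the other one), and a run of 8 capitals is the full element, in which a match on each strand overlaps.
Ell2: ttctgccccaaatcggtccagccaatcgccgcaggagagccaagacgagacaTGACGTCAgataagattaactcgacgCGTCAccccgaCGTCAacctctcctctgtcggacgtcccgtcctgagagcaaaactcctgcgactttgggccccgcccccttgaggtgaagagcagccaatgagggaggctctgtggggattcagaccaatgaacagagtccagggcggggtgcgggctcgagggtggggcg
Ccnt1: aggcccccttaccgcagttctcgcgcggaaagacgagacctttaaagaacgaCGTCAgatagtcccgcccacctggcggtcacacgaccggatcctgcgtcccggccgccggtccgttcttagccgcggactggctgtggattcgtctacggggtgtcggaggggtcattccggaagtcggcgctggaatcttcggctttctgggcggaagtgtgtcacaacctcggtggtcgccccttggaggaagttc
Larp7: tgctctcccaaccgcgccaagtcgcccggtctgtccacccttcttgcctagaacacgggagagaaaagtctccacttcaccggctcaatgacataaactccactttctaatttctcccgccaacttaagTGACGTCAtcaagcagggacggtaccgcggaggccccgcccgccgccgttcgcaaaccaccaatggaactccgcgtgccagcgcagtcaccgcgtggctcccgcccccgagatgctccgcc
Cdk9: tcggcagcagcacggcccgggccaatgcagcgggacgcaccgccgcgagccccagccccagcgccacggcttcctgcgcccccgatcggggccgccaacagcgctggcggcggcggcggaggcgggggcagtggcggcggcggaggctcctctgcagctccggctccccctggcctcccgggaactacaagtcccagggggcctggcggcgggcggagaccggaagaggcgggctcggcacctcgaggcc
The windows lie at chr13:75707234-75707483 on the plus strand for Ell2, and on the minus strand at chr15:98567737-98567986 for Ccnt1, chr3:127553350-127553599 for Larp7 and chr2:32712785-32713034 for Cdk9. The full element begins 198 bases before the start in Ell2 and 121 bases before it in Larp7, and the TGACG match of Ccnt1 also begins 198 bases before its start. Over all 32851 windows of this length 1.55% held the full element and 17.8% TGACG. Of the 8 genes with a window, 4 held TGACG, the other being Brd2 in 1 of its 3 annotated windows. The AP-1 motif TGANTCA, in 6.75% of all windows, the NF-kB consensus, in 5% of them, and the CArG box, in 1.47%, were in none of the windows of these genes. Their windows had 56.4 to 78.8% GC, against a median of 52.4% over all windows, and shares at a like GC content were not computed. Such matches describe the letters only, and the counts hold no measurement of binding.

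Depth ran from 19.8 to 119.7 M counted reads in the HDM libraries (median 41.1 M) and from 19.7 to 62.4 M in the vehicle libraries (median 41.7 M). The 9 genes had 392 to 56516 reads in a library. All 8 macrophage markers examined were expressed, among them Adgre1, the gene of F4/80, at 1439 to 2712 CPM (counts per M reads) with HDM and 1450 to 2779 with vehicle. The 8 summed to 17876 to 21349 CPM with HDM and 16802 to 21062 with vehicle, and 1 of them, Cd14, was called. In bulk RNA, fewer cells of a type and less RNA per cell cannot be told apart. Of the markers of other cells, the 6 of lymphocytes summed to at most 0.165 CPM, the 6 of neutrophils to at most 6.19, and the 6 of mast cells, basophils and eosinophils to at most 0.1, with Ms4a2 and Mcpt8 at 0 reads. The 6 of stroma and endothelium, which include Kdr, summed to 13.5 to 38.9 CPM with HDM and 12.5 to 39.4 with vehicle, the 6 of dendritic cells, which include Itgax of macrophages too, to 79.5 to 202 and 81.4 to 201, and the 5 of erythroid cells and megakaryocytes, which include Pf4, to 103 to 197 and 97.0 to 186, with Hba-a1 and Hbb-bs at 0 reads. None of these lists of other cells had a called gene, but few of their genes passed the low-count filter and could be called. Those were 2 of dendritic cells, 2 of neutrophils, 4 of stroma and endothelium and 1 of erythroid cells and megakaryocytes. Of lymphocytes, and of mast cells, basophils and eosinophils, 0 were tested. The libraries numbered 5 and 6 of both treatments stood apart on the first principal component (48.2% of the variance, 21.1 to 29.1 against -17.7 to -7.26 for the other 8), so each result below is also given without them where its call changes.

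After 1 h of HDM the differences from vehicle were small for these 9 transcripts. Cdk9 was the only one of the 9 that edgeR's quasi-likelihood test called (adjusted p under 0.05), and it fell by about 11%. No member was called higher by edgeR (2 had an unadjusted p under 0.05), by limma-voom or by DESeq2. In all tested genes the test called 5.37%, with 2.90% higher and 2.47% lower. At an unadjusted p under 0.05 there were 6 of the 9, 4 of them lower and 2 higher, against 14.0% of all tested genes. The 9 were chosen with earlier results of these data known, so such counts, here and below, do not test the list. Taken without sign, log2 changes had a median of 0.10 in the 9 genes, 0.059 in all tested genes and 0.39 in the genes called.

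HDM and vehicle libraries of equal number deviated together, so the test was also run with the library number as a block. Libraries of unequal number within 1 to 4, and within 5 and 6, deviated together too, so pairing by number is assumed. The test with the block called 5 of the 9: Cdk9, Ccnt2 and Brd2 lower and Ccnt1 and Ell2 higher. That fit called 14.7% of all tested genes, 7.90% higher and 6.81% lower. If neighbouring numbers share an animal or culture, each treatment holds fewer independent samples than 6. With the counts of numbers 1 and 2, 3 and 4, and 5 and 6 summed, and the set as a term, the same 5 genes were called, against 11.1% of the genes tested in that fit. Fits of part of the libraries called 7.88% of tested genes for numbers 1 to 4 (12.8% with the block) and 8.47% for numbers 5 and 6 (8.74% with the block). In 4 of the 9 genes HDM lay on 1 side of vehicle in all 6 numbers, against 17.9% of tested genes. The share of all genes without overlap within numbers 1 to 4, or within 5 and 6, was not counted. With 2 libraries a group, an exact test of such a separation cannot give a p under 0.333. Even Brd3 had no overlap in 5 and 6, at a log2 ratio of means of -0.011.

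**Figure D1:**
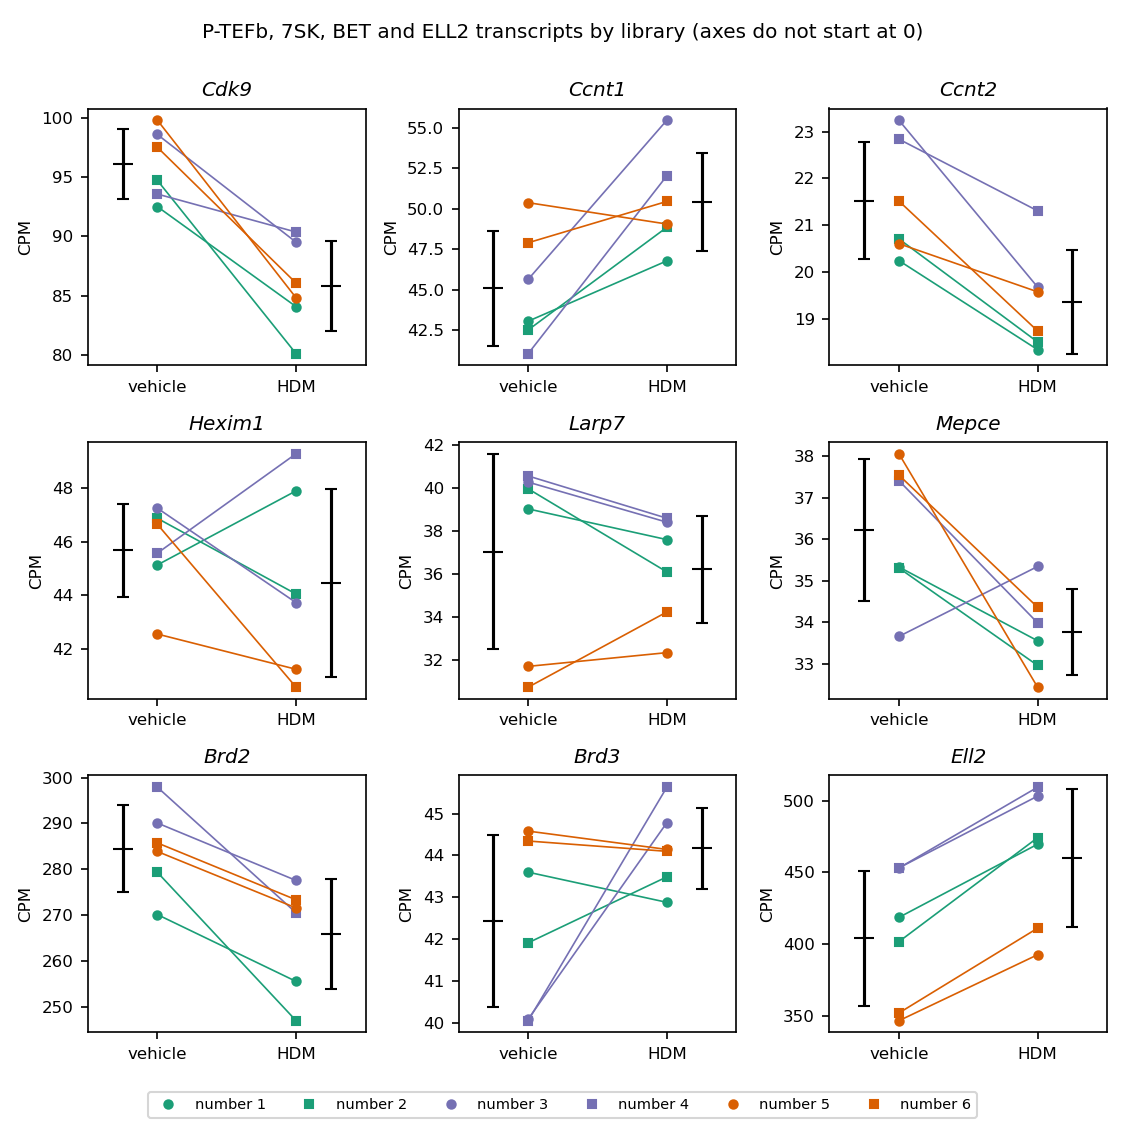
Level of each of the 9 genes in CPM (vertical axes, which do not start at 0) in the vehicle and HDM libraries, with a line joining libraries of the same number, neighbouring numbers in 1 colour, and the mean ± SD of the 6 libraries as black bars. Cdk9 lies between 80.1 and 90.4 CPM with HDM and between 92.5 and 99.8 with vehicle, and every line of Ell2 goes up.

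Cdk9 encodes the kinase itself. It stood at 84.1, 80.1, 89.5, 90.4, 84.8 and 86.1 CPM in HDM libraries 1 to 6 and at 92.5, 94.7, 98.6, 93.6, 99.8 and 97.5 CPM in vehicle libraries 1 to 6. The highest HDM library was below the lowest vehicle library, and Cdk9 was the only 1 of the 9 without overlap. Of all tested genes 4.39% had no overlap, 2.32% with HDM higher and 2.07% with HDM lower. The mean was 85.8 ± 3.76 CPM with HDM against 96.1 ± 2.93 with vehicle (SD, n = 6 each), -0.16 ± 0.034 SE on the log2 scale (95% interval -0.24 to -0.090, edgeR adjusted p = 0.0114, and 0.000472 with the block). HDM was lower in all 6 numbers. The call held without any single library (adjusted p 0.00956 to 0.0318). With libraries 1 to 4 alone the change was -0.14 and not called (adjusted p = 0.0576). With the block, in a fit added after seeing the data, it was called there (adjusted p = 0.0108). With 5 and 6 alone, 2 libraries a group, the change was -0.20 (adjusted p = 0.000369). The annotation places 2 microRNA genes within exons of Cdk9, on the same strand. Neither had a read, which does not show how reads in the shared bases were assigned.

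The 2 cyclins pair with CDK9 in alternative forms of P-TEFb and their transcripts lay on opposite sides of vehicle. Ccnt1, the gene of cyclin T1, was at 46.8, 48.9, 55.5, 52.0, 49.1 and 50.5 CPM in HDM libraries 1 to 6 and at 43.1, 42.5, 45.6, 41.0, 50.4 and 47.9 in vehicle libraries 1 to 6. The groups overlapped, and the vehicle libraries 5 and 6 were the 2 highest of their group. The log2 change was 0.16 ± 0.055 SE (adjusted p = 0.137, and 0.00895 with the block), with HDM higher in 5 of 6 numbers. Without vehicle 5 it was 0.20 and called (adjusted p = 0.0419). Libraries 1 to 4 alone gave 0.23 (adjusted p = 0.0145), with no overlap between 46.8 to 55.5 and 41.0 to 45.6 CPM. In libraries 5 and 6 the mean was 49.8 ± 0.988 CPM with HDM against 49.1 ± 1.75 with vehicle (SD, n = 2 each). Whether the change differs between these sets of libraries was not tested. On the opposite strand 9330020H09Rik shares 695 exon bases with Ccnt1, and its whole count was 0.219% of that of Ccnt1.

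Ccnt2, the gene of cyclin T2, was at 18.3, 18.5, 19.7, 21.3, 19.6 and 18.7 CPM in HDM libraries 1 to 6 and at 20.2, 20.7, 23.2, 22.8, 20.6 and 21.5 in vehicle libraries 1 to 6. HDM was lower in all 6 numbers, and the groups overlapped only through HDM 4, the highest of its group. The log2 change was -0.15 ± 0.050 SE (adjusted p = 0.115, and 0.00765 with the block). It was -0.16 between the means of libraries 1 to 4 and -0.14 between those of 5 and 6.

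The ratio of the cyclin transcripts within a library does not depend on how libraries are scaled. On the log2 scale Ccnt1 to Ccnt2 was 1.35, 1.40, 1.49, 1.29, 1.32 and 1.43 in HDM libraries 1 to 6 and 1.09, 1.04, 0.97, 0.85, 1.29 and 1.15 in vehicle libraries 1 to 6. Only vehicle 5 reached the HDM range, at its lower edge. The mean was 1.38 ± 0.075 with HDM against 1.06 ± 0.15 with vehicle (SD, n = 6 each), a difference of 0.32 (two-sided exact permutation test, p = 0.00433, adjusted p = 0.0130 over the 4 ratios tested, where the smallest possible p is 0.00216). In reads, by the geometric mean, Ccnt1 had 2.604 times those of Ccnt2 with HDM and 2.091 times with vehicle. The ratio was higher with HDM in 6 of 6 numbers. An exact sign-flip test of the numbers as pairs gave its smallest possible p, 0.03125, and an adjusted p of 0.0625. The difference was 0.40 in libraries 1 to 4 and 0.16 in libraries 5 and 6.

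Over all 12 libraries the 7SK side of the pathway was not called in any member, with or without the block. Hexim1, an intronless gene whose product inhibits P-TEFb, was at 47.9, 44.1, 43.7, 49.3, 41.3 and 40.6 CPM in HDM libraries 1 to 6 and at 45.1, 46.9, 47.2, 45.6, 42.6 and 46.6 in vehicle libraries 1 to 6. All vehicle libraries lay within the range of the HDM libraries, and HDM was higher in 2 of 6 numbers. The fold change was 0.974 with a 95% interval of 0.903 to 1.05 (adjusted p = 0.937), so a change of more than about 10% in either direction lies outside the interval. In libraries 5 and 6 alone both HDM values were below both vehicle values, at -0.13 on the log2 scale (adjusted p = 0.128). Larp7, the gene of the protein that binds and stabilises 7SK, was at 36.2 ± 2.51 CPM with HDM against 37.0 ± 4.56 with vehicle (SD, n = 6 each), -0.036 ± 0.078 SE as a log2 change (95% interval -0.21 to 0.13, adjusted p = 1). Its level was lower in libraries 5 and 6 than in the others: 32.3 to 34.2 against 36.1 to 38.6 CPM with HDM and 30.7 to 31.7 against 39.0 to 40.6 with vehicle. HDM was lower than vehicle in each of the numbers 1 to 4 and higher in 5 and 6, with no overlap of the groups within either set. Whether these directions differ beyond error was not tested.

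Mepce, the gene of the enzyme that caps 7SK, was at 33.8 ± 1.03 CPM with HDM against 36.2 ± 1.72 with vehicle (SD, n = 6 each). It was lower with HDM in 5 of 6 numbers, number 3 being the exception, and the log2 change was -0.10 ± 0.037 SE (edgeR adjusted p = 0.190, and 0.0648 with the block). In libraries 5 and 6 alone, 2 libraries a group, it was called, at -0.18 (adjusted p = 0.0402). With the block it was not called there, at -0.17 (adjusted p = 0.0546). In 1 to 4 alone it was at -0.061 (adjusted p = 0.483). The log2 ratio of Larp7 to Mepce differed by 0.074 between treatments (exact permutation p = 0.474, adjusted p = 0.474), from -0.0059 to 0.18 with HDM and -0.29 to 0.26 with vehicle. The log2 ratio of Hexim1, the inhibitor, to Cdk9, its target kinase, was -0.95 ± 0.11 with HDM against -1.07 ± 0.078 with vehicle (SD, n = 6 each). That difference of 0.12 did not pass the test (exact permutation p = 0.0866, adjusted p = 0.115), but did without HDM 6 (adjusted p = 0.0231). The ratio was higher with HDM in 5 of 6 numbers.

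**Figure D2:**
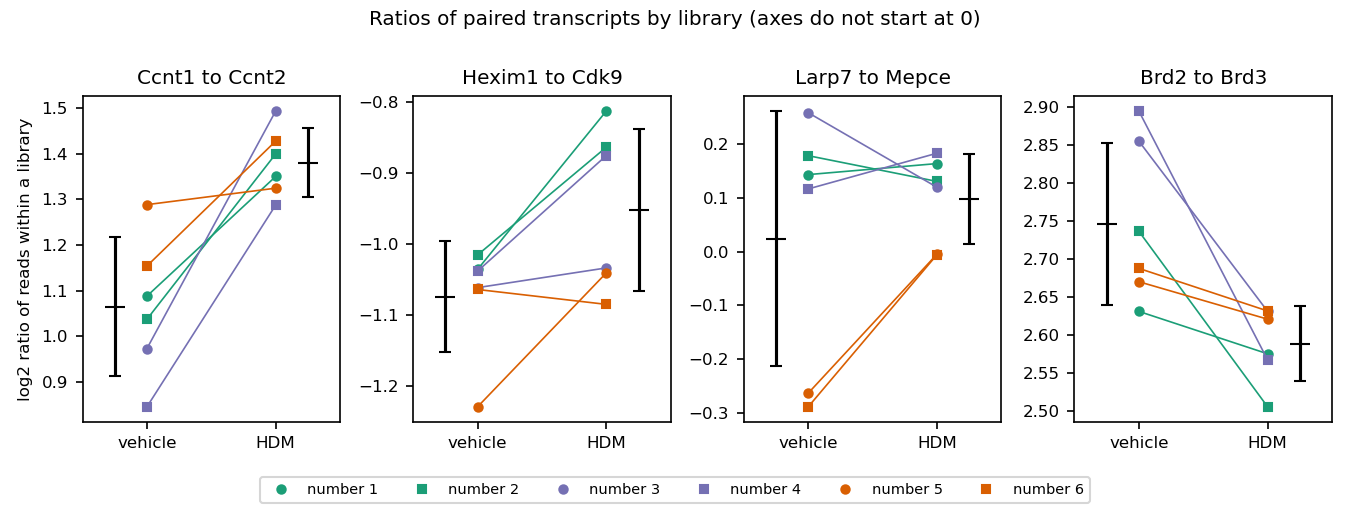
Log2 ratio of the reads of 2 transcripts within a library (vertical axes, which do not start at 0) for 4 pairs, with a line joining libraries of the same number and the mean ± SD of the 6 libraries as black bars. Ccnt1 to Ccnt2 is higher with HDM in 6 of 6 numbers and Brd2 to Brd3 lower in 6 of 6.

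The BET genes Brd2 and Brd3 encode closely related readers of acetylated histones. Brd2 was at 255.6, 247.0, 277.6, 270.5, 271.6 and 273.4 CPM in HDM libraries 1 to 6 and at 270.2, 279.4, 290.1, 297.9, 283.9 and 285.8 in vehicle libraries 1 to 6. HDM was lower in all 6 numbers while the groups overlapped, since vehicle 1 was below 5 vehicle libraries and 4 HDM libraries. The log2 change was -0.098 ± 0.036 SE (adjusted p = 0.186, and 0.0078 with the block). On the opposite strand H2-DMa shares 360 exon bases with Brd2. Without the strand setting of the counting their reads cannot be told apart with certainty there, and the whole count of H2-DMa was 3.13% of that of Brd2. That share does not cover reads that were counted for neither gene. CR974462.3, also on the opposite strand, shares 405 exon bases with Brd2 and has no row in the count table. Brd3 was at 44.2 ± 0.964 CPM with HDM against 42.4 ± 2.05 with vehicle (SD, n = 6 each), 0.058 ± 0.035 SE as a log2 change (95% interval -0.018 to 0.13, adjusted p = 0.579). HDM was higher in 3 of 6 numbers, by 0.16 and 0.19 on the log2 scale in numbers 3 and 4 and by 0.053 in number 2.

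The log2 ratio of Brd2 to Brd3 was 2.58, 2.51, 2.63, 2.57, 2.62 and 2.63 in HDM libraries 1 to 6 and 2.63, 2.74, 2.85, 2.89, 2.67 and 2.69 in vehicle libraries 1 to 6. The groups touched only at vehicle 1. The mean was 2.59 ± 0.049 with HDM against 2.75 ± 0.11 with vehicle (SD, n = 6 each), a difference of -0.16 (exact permutation p = 0.00649, adjusted p = 0.0130), and lower with HDM in 6 of 6 numbers. As pairs the sign-flip test gave an adjusted p of 0.0625. The difference was -0.21 in libraries 1 to 4 and -0.053 in libraries 5 and 6.

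Ell2, the subunit of the super elongation complex, had the most reads of the 9 genes and the largest positive fold change among them. It stood at 469.6, 474.1, 503.1, 509.3, 392.4 and 411.0 CPM in HDM libraries 1 to 6 and at 418.5, 401.5, 453.0, 452.9, 346.4 and 351.8 in vehicle libraries 1 to 6. The groups overlapped, and libraries 5 and 6 were the lowest in both treatments. Within libraries 1 to 4, and within 5 and 6, every HDM library was above every vehicle library (share over all genes not counted). The log2 change was 0.19 ± 0.085 SE (adjusted p = 0.349). With the block it was 0.19 ± 0.022 (adjusted p = 8.09e-06), and HDM was higher in 6 of 6 numbers, by 0.15 to 0.24 on the log2 scale. Libraries 1 to 4 alone gave 0.18 (adjusted p = 0.0242) and 5 and 6 alone, 2 libraries a group, 0.21 (adjusted p = 2.72e-05). The spread within numbers 5 and 6 may be technical only. Within both sets Ell2 was thus called in the same direction, though not over all 12 libraries without the block.

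**Figure D3:**
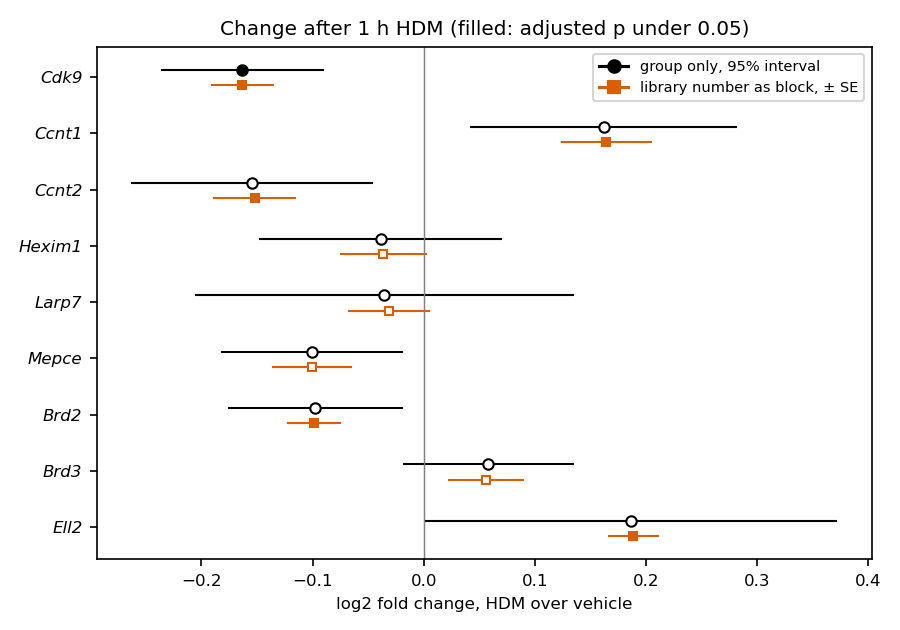
Log2 fold change of HDM over vehicle (horizontal axis) for the 9 genes, from the fit with group only (black circles, 95% interval) and with the library number as a block (orange squares, ± SE), filled where the adjusted p is under 0.05. Only Cdk9 is filled in black, at -0.16, and the orange squares of Ccnt1, Ccnt2, Brd2 and Ell2 are filled too.

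Levels were compared between genes only per kb of transcript, with the longest coding RefSeq transcript in GENCODE M21. In vehicle libraries Ell2 came first at 92.2 ± 10.7 CPM per kb, then Brd2 at 61.1 ± 2.03, Cdk9 at 55.5 ± 1.69, Ccnt1 at 20.7 ± 1.64, Larp7 at 17.5 ± 2.15, Hexim1 at 13.1 ± 0.493, Mepce at 11.6 ± 0.548, Brd3 at 7.83 ± 0.379 and Ccnt2 at 3.20 ± 0.186 (SD, n = 6). Ccnt1 and Larp7 were the only neighbours whose libraries overlapped. The order was the same with HDM. The place of Ccnt1 depends on its annotated length: over all annotated exons, 9157 bases in place of 2175, it came between Brd3 and Ccnt2, at 4.92 ± 0.389 CPM per kb with vehicle, and 4 of 6 vehicle libraries still had Ell2 above Brd2. Among these 9 transcripts that of cyclin T2 was the lowest by both lengths.

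By the root mean square difference of log2(CPM + 0.5), centred per gene, over the 12 libraries, the 3 genes most like Cdk9, of 10794 named genes averaging 1 CPM or more, were Topors at 0.029, Ogfr at 0.034 and Telo2 at 0.034. Topors was at 57.6 ± 2.18 CPM with HDM against 65.5 ± 2.6 with vehicle (SD, n = 6 each; log2 change -0.19 ± 0.035 SE, adjusted p = 0.00605). Ogfr was at -0.14 ± 0.038 (adjusted p = 0.0482) and Telo2 at -0.18 ± 0.044 (adjusted p = 0.0273). All 12 libraries enter this measure, and with them the difference between treatments. The choice thus favoured genes with a change like that of Cdk9, and their p-values are no separate evidence.

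A further 40 genes of elongation control were read from the same fit, and 37 passed the filter. Aff3, Ell3 and Eaf2 did not, with at most 7, 33 and 26 reads in a library. edgeR called 0 of the 37, limma-voom 0 and DESeq2 0, with 3 at an unadjusted p under 0.05 (1 higher, Paf1, and 2 lower, Jmjd6 and Rtf1). Of all tested genes edgeR called 5.37%, and 14.0% had an unadjusted p under 0.05. By limma-voom 780 of the 13530 were called, and by DESeq2 955. With the block 14.7% of all tested genes were called, and of the 37 only 1, Mllt3, which was lower and was named after its value was seen. Its product is a subunit of the super elongation complex that reads acylated histones, and it was lower with HDM in 6 of 6 numbers (log2 fold change -0.20 ± 0.16 SE, adjusted p = 0.758, and 0.0315 with the block). That call was lost in the other fits with a block: without libraries 5 and 6 the log2 change was -0.18 (adjusted p = 0.161), in libraries 5 and 6 alone -0.23 (adjusted p = 0.204), and with neighbouring numbers summed -0.18 (adjusted p = 0.0788). The median log2 change of the 37 was -0.011, against -0.0048 in all tested genes.

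Hexim2, the relative of Hexim1, was at 1.85 ± 0.443 CPM with HDM against 2.05 ± 0.435 with vehicle (SD, n = 6 each, adjusted p = 0.956). Rn7sk, the 7SK RNA, lacks a poly(A) tail and the kit selects poly(A) RNA, so its 16 to 110 reads per library do not measure its level. Brdt, a further BET gene, best known from the testis, had 25 to 270 reads per library and a log2 change of -0.13 ± 0.16 SE (adjusted p = 0.929). Of the genes for the release of P-TEFb from 7SK, the phosphatase genes Ppp1ca, Ppm1g and Ppp3ca lay within 0.02 of 0 on the log2 scale, and Jmjd6 was at -0.090 ± 0.040 SE (adjusted p = 0.318).

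In the super elongation complex the 6 tested genes other than Ell2 ranged from -0.20 to 0.066, with Eaf1, whose product binds ELL proteins, at -0.051 ± 0.028 SE (adjusted p = 0.509). Of the little elongation complex, which serves small nuclear RNA genes, Ice1 was at 0.048 ± 0.043 (adjusted p = 0.815). The genes of DSIF and NELF, the factors that hold the paused polymerase, ranged from -0.097 for Nelfcd (± 0.061 SE, adjusted p = 0.602) to 0.028, with Supt5 at 188 ± 8.72 CPM with HDM against 194 ± 5.73 with vehicle (adjusted p = 0.679). Of the PAF1 complex, which travels with the elongating polymerase, Rtf1 was at -0.077 ± 0.033 SE (adjusted p = 0.302). The general factor kinase gene Cdk7 was at 0.039 ± 0.038 (adjusted p = 0.860), and Iws1, whose product works with SPT6 on chromatin, at 0.048 ± 0.041 (adjusted p = 0.798). None of the 6 tested genes for other kinases of the polymerase tail and their partners lay more than 0.051 from 0 on the log2 scale.

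**Figure D4:**
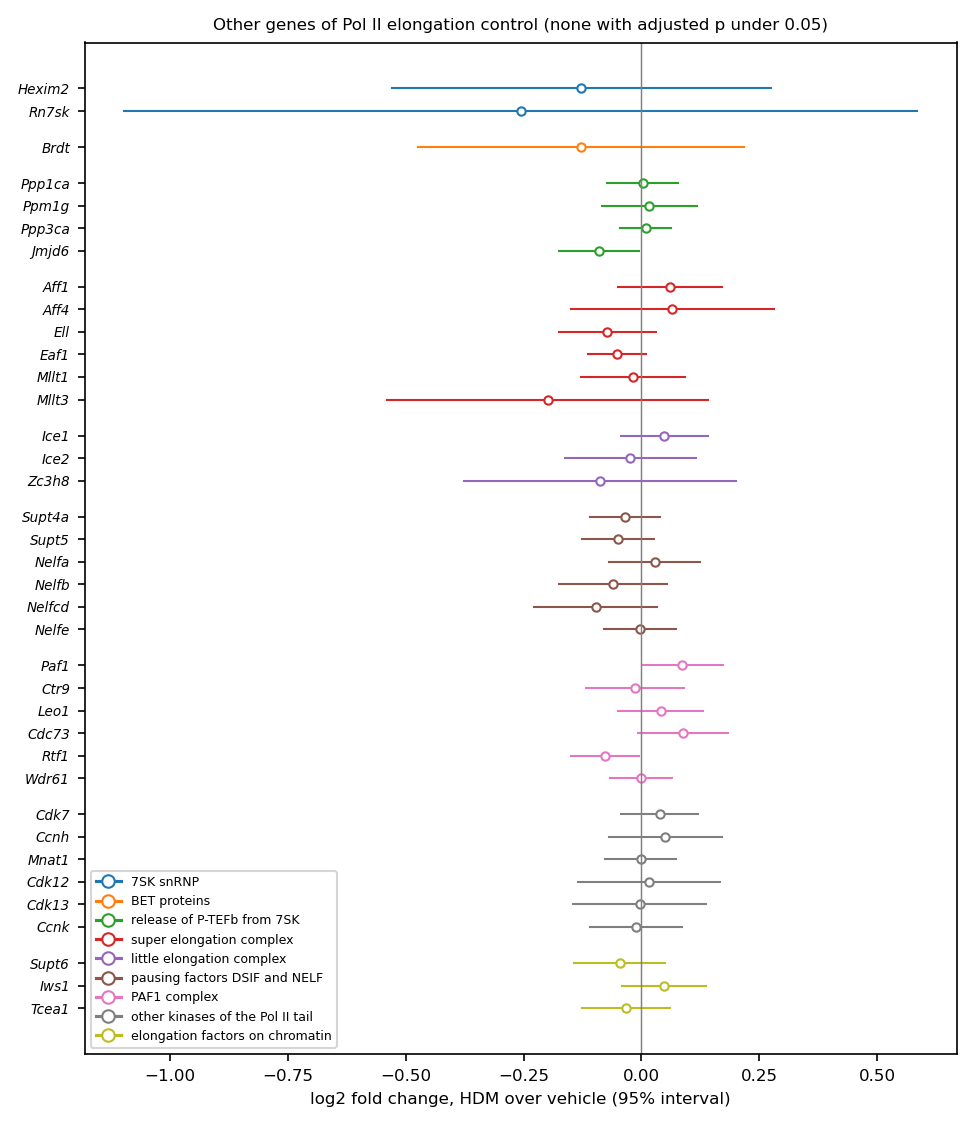
Log2 fold change of HDM over vehicle with its 95% interval (horizontal axis) for the 37 tested genes of elongation control beside the 9, coloured by role. The points lie between -0.26 and 0.088, and the widest intervals belong to genes with few reads such as Rn7sk.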

How the data were processed

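RNA was sequenced from 12 libraries, 6 per treatment, with groups and numbers taken from the titles. Libraries were of poly(A) RNA and strand-specific, per the labels' protocols. The authors deposited raw counts per gene in 1 table of 50559 symbols. Their processing notes name STAR 2.6.0c and featureCounts 2.0.6 among the tools, beside trimming tools, and both GRCm38 and mm39 without a role for either. Which strand and gene models the counting used is not given in the sources used here.

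The test was edgeR 4.0.16's quasi-likelihood F test (R 4.3.3), two-sided, with TMM factors, filterByExpr and group as the only term, and Benjamini-Hochberg adjustment over 13530 genes. The threshold was an adjusted p of 0.05. The SE is the absolute log2 fold change divided by the square root of F. CPM use TMM factors. Ratios within a library had 0.5 added to each count and were tested by exact permutation of the 12 libraries. Alternatives were other scalings, no filter, limma-voom 3.58.1, DESeq2 1.42.0, robust shrinkage, the library number as a block, leaving out each library, and libraries 1 to 4 or 5 and 6 alone. Only the edgeR fit, with and without the block, was tested on simulated counts, which held no effect of library number.

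Deviations from the group means correlated at 0.466 to 0.783 between HDM and vehicle libraries of equal number, all above the bound of 0.1, so equal numbers were treated as pairs. This rests on the data and not on the labels, and 6 of the 12 libraries correlated best with their own number. The genes and lists were chosen with earlier results of these data known. All 9 genes are named, and of the other elongation genes the one with the smallest p in each role (Jmjd6, Eaf1, Ice1, Nelfcd, Rtf1, Cdk7, Iws1, Brdt, Hexim2), Supt5, and any called. A listed elongation gene and a cell marker are not reported here. A few more were named after their values were seen. Promoter windows and transcript lengths came from RefSeq and GENCODE M21 on GRCm38.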

Additional observations from a re-analysis of the deposited data

Results flagged for a closer look

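Of 46 sets of 6 libraries examined (each named gene and each ratio in each treatment), 2 held a library far from the other 5, and chance alone gives about 1 in 20. Both concern vehicle 5. Its log2 ratio of Hexim1 to Cdk9 was -1.23, with the other 5 vehicle libraries between -1.06 and -1.01. Its Cdk7 level was 36.1 CPM, with the other 5 between 31.8 and 33.1.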

How the results depend on the processing

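All 9 genes kept their direction with RLE, upper-quartile and total-size scaling, with no filter, limma-voom, DESeq2, robust shrinkage and the replicate block, and without any single library. The largest shift of the median of all genes by a scaling was -0.020. The test called 727 genes in all. With the replicate block it called 1990 genes, 5 of the 9 genes and 1 other elongation gene. With libraries 1 to 4 alone it called 1076 genes, 2 of the 9 (Ccnt1 and Ell2) and 0 others, and with 5 and 6 alone 1139 genes, 3 of the 9 (Cdk9, Mepce and Ell2) and 1 other (Rn7sk). Fits added after seeing the data gave 1741 genes, 5 of the 9 and 2 others (Aff4 and Cdc73) for libraries 1 to 4 with the block, 1176 genes, 2 of the 9 and 1 other for 5 and 6 with the block, and 1656 genes, 5 of the 9 and 0 others with neighbouring numbers summed. Leaving out 1 library called 561 to 694 genes and 1 to 2 of the 9, and moved the log2 ratio of Hexim1 to Cdk9 between 0.091 and 0.15 and that of Larp7 to Mepce, which was not called in any of these fits, between 0.011 (without vehicle 6) and 0.12 (without vehicle 3).

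The log2 ratios of Ccnt1 to Ccnt2 and of Brd2 to Brd3 were not called under 3 alternatives. They were 0.32 and -0.16 with the replicate block (sign-flip test, adjusted p 0.0625 each). In libraries 1 to 4 they were 0.40 and -0.21 (smallest possible p 0.0286) and in 5 and 6 0.16 and -0.053 (0.333). With the block and in 1 to 4 a call needed the smallest possible p in most of the ratios tested. In 5 and 6 no call was possible. Without single libraries both stayed called. Among the named genes and ratios, directions turned only within sets of libraries, in values that were not called. Larp7 to Mepce was -0.025 and Hexim1 0.0091 (0.0082 with the block) in libraries 1 to 4. Larp7 was 0.099 (0.10) and Brd3 -0.0072 (-0.0072) in 5 and 6. The cause was not tested.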
